A study of Arabidopsis thaliana with 20 samples.

Results

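Whole seedlings of Arabidopsis thaliana were compared with mature first leaves by setting all 10 arrays from 9 d seedlings against all 6 arrays from 15 d first leaf pairs, 16 of the 20 arrays of the study. The members of the comparison were chosen by the labels of tissue and age alone, over all genotypes. A seedling carries root, hypocotyl, cotyledons, shoot apex and young leaves together, and all its organs enter the RNA, whereas a first leaf pair is 1 organ type. In textbook terms the shoot and root apical meristems and the youngest leaves hold the dividing cells of a seedling, and a first leaf passes from cell division to expansion and then to a source organ that exports sugar. Genes of roots, meristems and dividing cells are commonly used as markers of the organs that a mature leaf sample lacks.

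The study measured RNA of wild type (Columbia) and of mutants in genes of the MYB3R family, transcription factors that control G2/M genes, on Affymetrix arrays with 22810 probe sets. Seedlings came from wild type, from the single mutants myb3r1, myb3r3, myb3r4 and myb3r5, from the double mutants myb3r1 myb3r4 and myb3r3 myb3r5, from the triple mutants myb3r1 myb3r3 myb3r5 and myb3r3 myb3r4 myb3r5, and from the quadruple mutant myb3r1 myb3r3 myb3r4 myb3r5, with 1 array each. At 15 d the first leaf pair was sampled in wild type and in myb3r1 myb3r3 myb3r5, with 3 arrays each. The same 2 genotypes were sampled at 5 d, with 2 arrays each, and these are given as a young leaf for reference. All plants grew on agar medium with sucrose under continuous light and had no other treatment. No probe set was paired with a MYB3R gene by name, so the levels of the mutated genes are not analysed here. Seedlings and leaves differ in age as well as in organ content, and the tissue difference and the age difference cannot be told apart. The labels do not say where replicates came from or how many plants entered a sample. P-values therefore measure the spread between these samples, part of which may be technical. Genotype counts as spread within a tissue, since each seedling array is a different genotype. The mix of genotypes also differs between seedlings and leaves.

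Values are signals on the linear scale of MAS5, the array software's probe set summary, and a floor of 33 was set before log2 was taken. Signals printed for single arrays are the deposited ones, also below the floor. On all 20 arrays the trimmed mean was about 500.04 to 500.06, but 21.4% to 24.5% of probe sets lay under 33 on seedling arrays and 27.5% to 33.3% on 15 d leaf arrays, ranges that do not overlap. The GAPDH 3′ to 5′ signal ratio, a measure of RNA integrity and labelling, was 1.71 to 2.69 in seedlings, 0.91 to 1.85 in 15 d leaves and 1.11 to 1.64 in 5 d leaves. The summed signal of the poly-A spike controls was 1970 to 3429 in seedlings. It was 89.9 and 91.7 on the 15 d leaf arrays numbered 3, and 130.5 and 70.9 on the 5 d leaf arrays numbered 2. On the other leaf arrays it was 1908.0 to 2969.2. The part of these technical measures in the results was not tested. The 15 d leaf arrays numbered 1 stood nearer to the seedlings than the others. Their median correlation with the seedling arrays was 0.924 in wild type and 0.901 in the triple mutant, against 0.832 to 0.884 for the other 4.

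Of 17819 probe sets with a signal over the floor on 6 or more of the 16 arrays, limma called 65.0%, with 7348 higher in seedlings (41.2%) and 4240 higher in 15 d leaves (23.8%), at a Benjamini-Hochberg adjusted p under 0.05. A called probe set was said to separate the tissues where every array of one tissue lay above every array of the other. This held for 3367 probe sets with the seedlings higher (18.9%) and 1915 with the leaves higher (10.7%). A probe set at the floor on every array of one tissue passed the filter through the other tissue alone, so it could differ in 1 direction only. A fold with some arrays at the floor is against values set to the floor and is no exact ratio. Those that separated by 2 log2 units or more numbered 868 (4.87%) and 401 (2.25%). Leaf arrays numbered 1 limited these counts: without both of them 5309 probe sets separated the tissues with seedlings higher and 3076 with leaves higher. The scaling moved the balance of the directions. The median difference over all tested probe sets was 0.21 on the log2 scale under the deposited scaling and -0.02 under quantile normalization, where 5583 were called higher in seedlings and 5888 in leaves, and 2643 and 2492 separated the tissues.

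In wild type alone, 1 seedling array stood against 3 leaf arrays, and this comparison has no test. Past at least 1 log2 unit and outside the range of the 3 leaf arrays were 3163 probe sets with the seedling higher (17.8%) and 1560 with the leaves higher (8.75%), and the median difference was 0.17. Under quantile normalization these counts were 2368 and 2155. Probe sets that separated the tissues with seedlings higher had a median log2 level of 8.58 in seedlings, 6.77 in 15 d leaves and 8.90 in 5 d leaves. Those with 15 d leaves higher had medians of 8.63, 10.05 and 7.51 in the same order. Over all tested probe sets the medians were 8.32, 8.13 and 8.01. Of the 3367 probe sets higher in seedlings, 269 (7.99%) were at the floor on all 4 arrays of 5 d leaves, as were 7.26% of all tested probe sets. Set against the 5 d leaves, 67.9% of 18214 tested probe sets were called, 40.4% with seedlings higher and 27.5% with young leaves higher, and 5019 probe sets separated with the seedlings higher (27.6%) and 3412 with the young leaves higher (18.7%), a comparison that uses the same seedling arrays. Differences of 2 log2 units or more that separated made up 7.6% and 0.505%. This balance turned round under quantile normalization, with 5504 called higher in seedlings and 7326 in young leaves, and 3633 and 4969 separated.

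The 3 root genes that could be tested, PYK10, EXPA7 and EXPA18, were higher on every seedling array than on every mature leaf array. The list of root markers held 53 loci, of which 4 had a probe set with a name and 3 passed the filter on low values. EXPA7 and EXPA18 were at the floor on all 6 leaf arrays and passed the filter through the seedlings alone, so their direction is no support for a shift of the list. In samples of whole tissue, fewer cells of a type and less RNA per cell cannot be told apart.

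PYK10 encodes a beta-glucosidase of endoplasmic reticulum (ER) bodies that is abundant in roots and seedlings. Its signal was 10506 to 17985 (median 12728) in seedlings and 402 to 3888 (median 1817.5) in 15 d leaves. The tissues did not overlap, and the leaf arrays of the triple mutant (1730, 402 and 724) lay below those of wild type (2288, 1905.5 and 3888). PYK10 was 9.23-fold higher in seedlings (log2 difference 3.21, SE 0.35, adjusted p = 3.4e-07, limma), and the difference in wild type was 2.28. The 5 d leaf arrays had 9414 and 8091 in wild type and 5277.0 and 6645 in the triple mutant, below every seedling and above every 15 d leaf array.

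EXPA7 and EXPA18 encode expansins, wall-loosening proteins, that act in root hairs. EXPA18 had a signal of 172 to 283 (median 211) in seedlings and 3.24 to 32.5 (median 11.2) in 15 d leaves, where all 6 arrays were under the floor. It was at least 6.4-fold higher in seedlings (log2 difference 2.68, SE 0.12, adjusted p = 6.1e-12). EXPA7 had 62.7 to 126.5 (median 97.2) in seedlings and 2.93 to 22.4 (median 12.6) in 15 d leaves, again with all 6 leaf arrays under the floor, and was at least 2.93-fold higher (adjusted p = 5e-08). In 5 d leaves EXPA18 lay just above the floor at 49.2, 35.2, 51.3 and 38.6, and EXPA7 was under it on 3 of 4 arrays. The wild-type seedling had the lowest EXPA7 signal of the 10 seedlings. BBM, which encodes a transcription factor of embryos and root meristems, was under the floor on all 20 arrays and was not tested.

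**Figure D1:**
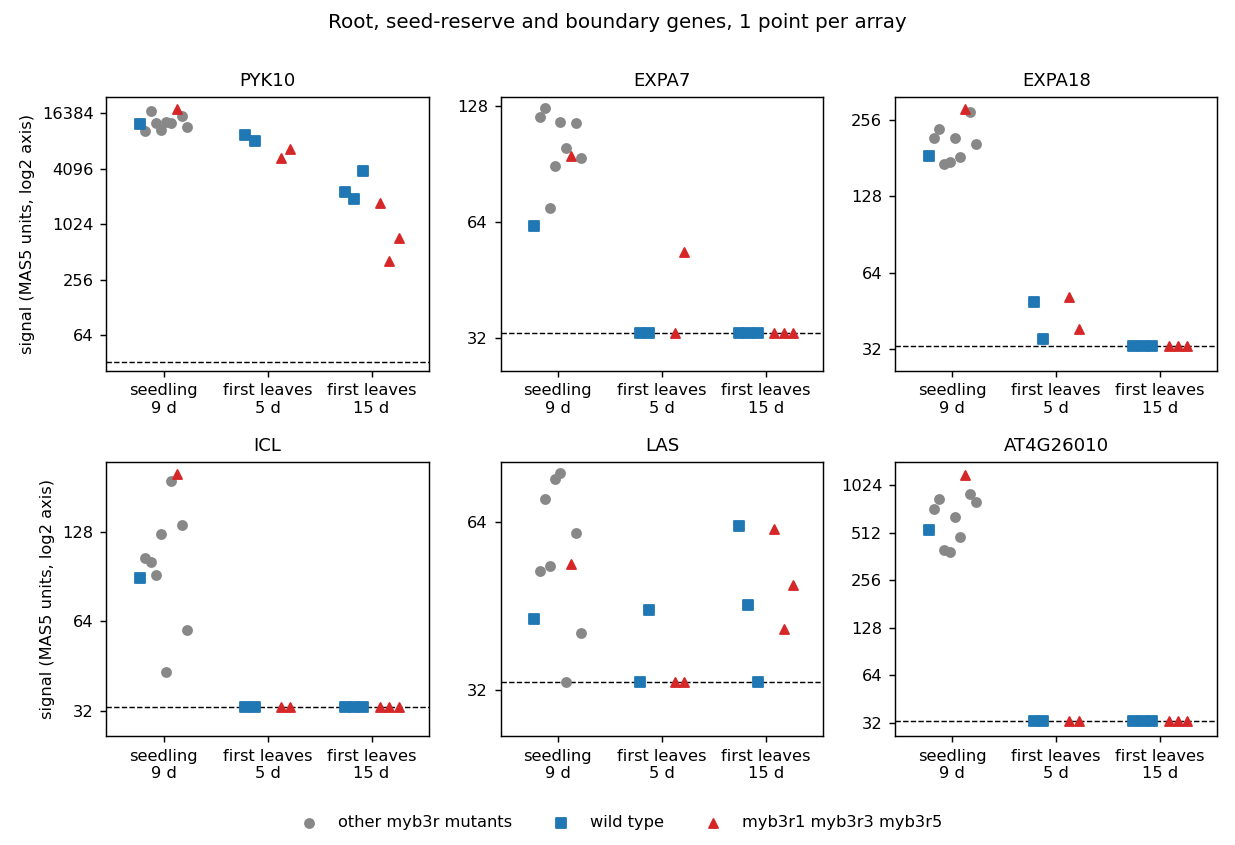
Signal on a log2 axis of 6 genes on every array (squares wild type, triangles myb3r1 myb3r3 myb3r5, circles other mutants), with 1 point per array and values under the floor of 33 (dashed line) drawn at the floor. EXPA7, EXPA18, ICL and AT4G26010 are at the floor on all 6 arrays of 15 d leaves, PYK10 is above it on every array, and LAS overlaps between tissues.

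Shoot meristem genes gave little signal in either tissue. Of 20 loci on the list of meristem and organ boundary genes, 2 had a named probe set. CLV3, the stem cell peptide of the shoot meristem, was at most 21.0 on any seedling array and 16.6 on any 15 d leaf array, all under the floor. LAS, a GRAS regulator of axillary meristems, had 13.8 to 78.6 (median 53.7) in seedlings and 10.3 to 63.0 (median 47.4) in 15 d leaves. The ranges overlapped over most of their length, and the log2 difference of 0.18 (SE 0.19, adjusted p = 0.42) did not pass the test. It turned to -0.48 (adjusted p = 0.033) under quantile normalization. The direction of the LAS difference thus depended on the scaling. From 5 d leaves it differed by 0.61 (adjusted p = 0.014).

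The seed oil gene ICL, which encodes isocitrate lyase of the glyoxylate cycle, was the 1 named member of 10 seed reserve loci. Its signal was 43.3 to 199.8 (median 103) in seedlings and 1.79 to 7.41 (median 5.0) in 15 d leaves. Every seedling lay above the floor and every leaf array of either age below it. ICL was at least 3.14-fold higher in seedlings than in 15 d leaves (log2 difference 1.65, SE 0.26, adjusted p = 2.7e-05), with a difference of 1.44 in wild type. Seedlings varied among themselves, from 43.3 in myb3r1 myb3r4 to 199.8 in myb3r1 myb3r3 myb3r5.

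Among leaf development genes, SPCH, YAB3 and AN were higher in every seedling than in every mature leaf array. They were 3 of 6 tested members and none separated with leaves higher, against 18.9% and 10.7% over all tested probe sets, and the median difference was 0.76. Of the members, SPCH and MUTE were at the floor on all 6 arrays of 15 d leaves and could separate in 1 direction only. Against 5 d leaves 3 of the 6 separated with the young leaves higher (18.7% of all) and the median difference was -1.0. SPCH, the bHLH factor that starts the stomatal lineage, had 39.2 to 117 (median 62.9) in seedlings, 0.567 to 23.5 (median 5.68) in 15 d leaves and 432 to 720.4 in 5 d leaves. All 15 d leaf arrays were under the floor, and the seedlings were at least 2.0-fold higher (adjusted p = 9.6e-05; 0.19 with a floor of 66). MUTE, which ends the dividing phase of that lineage, had 18.5 to 52.5 (median 38.7) in seedlings against 77.6 to 128 in 5 d leaves. Its seedling values straddled the floor and the 15 d leaf arrays were all at 5.16 or less. The log2 difference of MUTE was 0.29 (adjusted p = 0.035), and the call was lost without any 1 of the 6 leaf arrays (adjusted p = 0.054 to 0.060), without seedlings of 4 genotypes in turn (0.052 to 0.058) and with the replicate block (0.057).

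FMA, which acts in the last step to the guard cell, stood the other way. Its signal was 99.8 to 215 (median 162) in seedlings. In 15 d leaves it was 326.2, 203.3 and 213.0 in wild type and 356.2, 206.9 and 156.9 in the triple mutant, ranges that overlap, with a log2 difference of -0.61 (SE 0.19, adjusted p = 0.011). The difference was -0.33 (adjusted p = 0.11) without both leaf arrays numbered 1, and -0.52 (adjusted p = 0.31) with the wild-type and triple mutant arrays alone. YAB3, a gene of the lower leaf side, had 378 to 529.7 (median 449) in seedlings, 66.6 to 326 (median 170.5) in 15 d leaves and 694 to 1512 in 5 d leaves. It was 2.86-fold higher in seedlings than in mature leaves (adjusted p = 3.1e-05; 0.052 with the wild-type and triple mutant arrays alone). The leaf shape gene AN had 683 to 899.5 (median 814) in seedlings and 385 to 592 (median 469) in leaves, a 1.63-fold difference (adjusted p = 9.2e-06). TRY, a repressor of trichome formation, had 36.2 to 101 (median 59.0) in seedlings and 9.83 to 45.2 (median 23.8) in 15 d leaves. Its ranges overlap and 5 of the 6 leaf arrays were under the floor (log2 difference 0.81, adjusted p = 0.0015; 0.16 with a floor of 66 and 0.097 under quantile normalization).

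Of 8 tested G2/M genes 6 were called higher in seedlings than in mature leaves (41.2% of all tested probe sets were), and AUR1, AUR3, 3xHMG-box2 and AT1G63100 separated the tissues, 4 of 8 against 18.9% of all. None was called higher in leaves. Their median difference was 1.76, against 0.21 over all tested probe sets, and it was 2.76 in wild type. Against 5 d leaves 6 of the 8 separated with the young leaves higher (18.7% of all), and the median difference was -1.45.

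3xHMG-box2, whose product binds chromosomes in mitosis, had 1058 to 2125 (median 1386) in seedlings and 35.4 to 234 (median 69.0) in 15 d leaves. The lowest seedling was well above the highest leaf array, a 19.6-fold difference (log2 4.30, SE 0.29, adjusted p = 9.5e-10). In 5 d leaves its signal was 1964.5 to 4315. AT1G63100, of the same list, had 179 to 358 (median 281) in seedlings and 3.01 to 44.7 (median 27.8) in 15 d leaves. It was 7.34-fold higher in seedlings with 4 of 6 leaf arrays at the floor (adjusted p = 1.1e-10). AUR3, the Aurora kinase of centromeres, had 69.1 to 162 (median 116) in seedlings and 8.68 to 47.2 (median 21.0) in 15 d leaves (log2 difference 1.69, SE 0.16, adjusted p = 5.4e-08), and 392.5 to 974 in 5 d leaves.

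The genes of the spindle Aurora kinases, AUR1 and AUR2, had leaf signals that did not overlap between the leaf genotypes. AUR1 had 674.5 to 992 (median 788.5) in the seedlings of all 10 genotypes. In 15 d leaves it was 104.6, 28.0 and 48.5 in wild type and 607, 535 and 488 in the triple mutant. The seedlings lay above both leaf genotypes, with a log2 difference of 2.21 (SE 0.53, adjusted p = 0.0013), which was 3.64 in wild type and 0.88 in the triple mutant. AUR2 was 40.8, 12.9 and 15.0 in wild-type leaves and 734, 598 and 739 in leaves of the triple mutant, against 348 to 1107 (median 470.3) in seedlings. The triple mutant leaves thus fell inside the seedling range. Its log2 difference of 1.82 (adjusted p = 0.027) was not called without any 1 wild-type leaf array (adjusted p = 0.073 to 0.087) or with the replicate block (0.087).

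Over all tested probe sets the tissue difference in the triple mutant was compared with that in wild type, with 4 residual degrees of freedom. Each genotype had 1 seedling array, so the spread came from the leaf arrays alone. The test called 503 probe sets (2.82%, of which 1.09% with a smaller and 1.73% with a larger triple mutant difference), and 1119 had an unadjusted p under 0.05. Of the 503, 486 had all 3 leaf arrays of a genotype at the floor, where that genotype adds no spread. In 391 all 6 leaf arrays were at the floor, where the spread is 0 by construction. Every leaf array was above the floor in 1. The 503 calls are therefore not described further. For AUR1 the difference of differences was -2.76 and for AUR2 -2.63, the latter with 2 of 3 wild-type leaf arrays at the floor.

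In 3xHMG-box1, BUBR1 of the spindle checkpoint and KINESIN-12B of the phragmoplast, seedlings and leaves overlapped. Their highest leaf signals, all in the triple mutant, were 430.3, 286 and 308, and their seedling medians 284, 116 and 192. The highest wild-type leaf signals were 44.3, 26.1 and 46.3. The log2 differences were 1.53 (adjusted p = 0.015; 0.057 with the replicate block, 0.053 with the wild-type and triple mutant arrays alone, and 0.051 and 0.052 without wild-type leaf replicate 2 and 3), 0.80 (0.18) and 0.88 (0.12). In wild type they were 2.41, 1.70 and 1.79, and in the triple mutant 0.49, 0.83 and 0.23. BUBR1 was called in a fit with a term for each mutant allele (adjusted p = 0.0067) and with the wild-type and triple mutant arrays alone (0.032). KINESIN-12B was called with the allele terms (0.017) and without triple mutant leaf replicate 1 (0.040) or 3 (0.039).

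**Figure D2:**
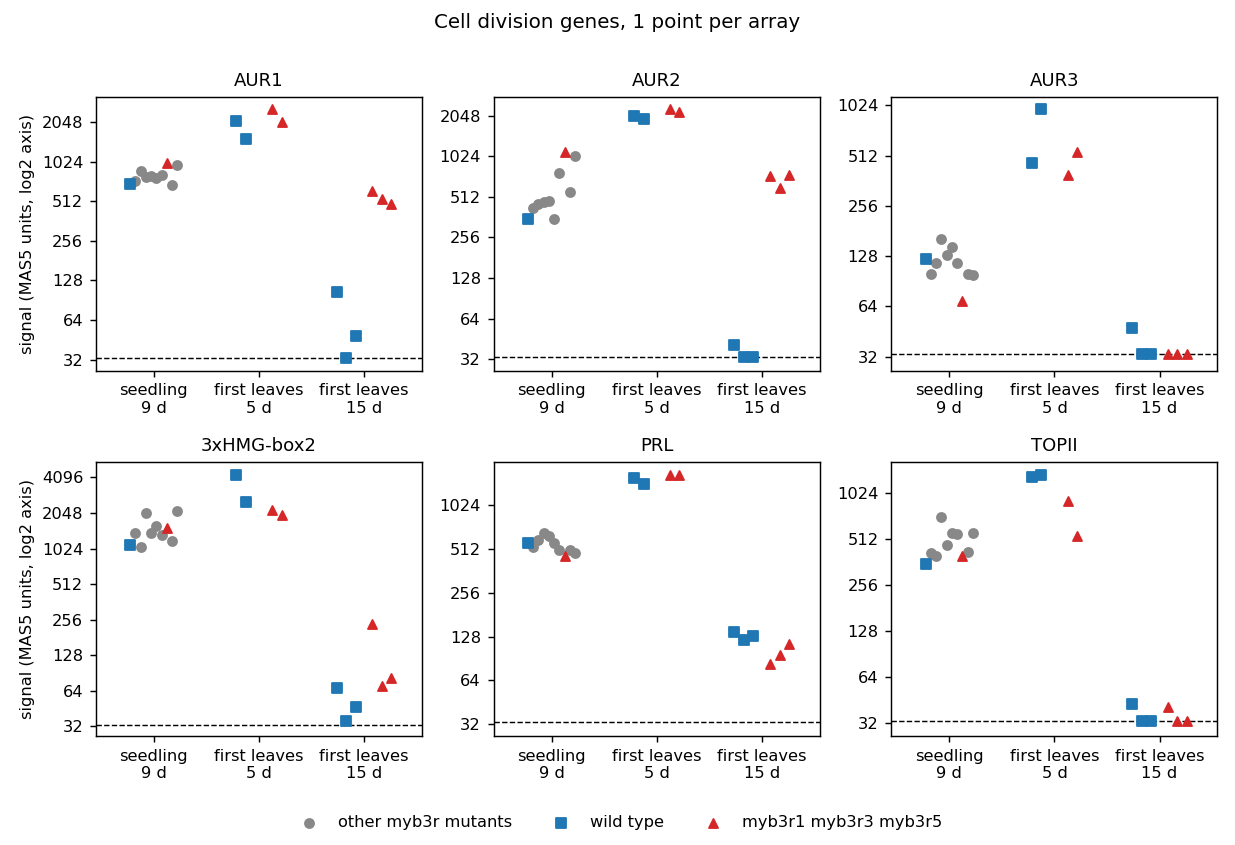
Signal on a log2 axis of 6 cell division genes on every array (squares wild type, triangles myb3r1 myb3r3 myb3r5, circles other mutants), with values under the floor of 33 (dashed line) drawn at the floor. AUR3, 3xHMG-box2, PRL and TOPII are low in 15 d leaves of both genotypes, while AUR1 and AUR2 are low in 15 d wild-type leaves and near the seedling level in 15 d leaves of myb3r1 myb3r3 myb3r5.

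Both measured genes of DNA replication were higher in seedlings. PRL, a subunit of the replicative helicase, had 462 to 663 (median 547) in seedlings and 82.9 to 138 (median 118) in 15 d leaves. It was 4.87-fold higher in seedlings (log2 difference 2.29, SE 0.12, adjusted p = 4.1e-11), with 2.12 in wild type and 2.25 in the triple mutant. ICU2, the catalytic subunit of DNA polymerase alpha, had 127 to 179.7 (median 139) in seedlings against 45.2 to 63.9 (median 55.5) in leaves. Its groups did not overlap (log2 difference 1.42, SE 0.11, adjusted p = 8.5e-09). These were the 2 members of 12 loci that had a named probe set. The histone H2B gene HTB2 had 1505 to 2067 (median 1852) in seedlings and 289.6 to 763 (median 583) in 15 d leaves, a 3.41-fold difference (adjusted p = 6.1e-08).

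Chromosome and chromatin genes are named here after their values were seen, so their direction is a description. TOPII, a DNA topoisomerase, had 350.4 to 718 (median 445) in seedlings and 13.2 to 42.8 (median 21.8) in 15 d leaves, with 4 of 6 leaf arrays at the floor (13.2-fold, adjusted p = 1e-12). The histone chaperone gene ASF1B had 355 to 766 (median 486) in seedlings and 52.4 to 166 (median 101) in leaves (4.87-fold, adjusted p = 4.3e-08). The spindle checkpoint genes BUB3.1 and BUB3.2 had log2 differences of 2.14 and 1.52, the centromeric histone gene HTR12 1.90, the inner centromere gene WYR 1.68 and the histone kinase gene Haspin 1.90. Each of them separated the tissues with seedlings higher. WYR and Haspin were at the floor on all 6 leaf arrays, so their differences are lower bounds and could go in 1 direction only. HTR12 was at the floor on 4 of the 6 leaf arrays and BUB3.2 on 3.

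Of 5 tubulin genes, TUB1, TUB5, TUB7 and TUA6 separated the tissues with seedlings higher, 4 of 5 against 18.9% of all tested probe sets, and none did so with leaves higher (median difference 1.61). TUB1 had 509 to 814 (median 639.5) in seedlings, 39.8 to 242 (median 118) in 15 d leaves and 141 to 234 in 5 d leaves. It was 6.05-fold higher in seedlings than in mature leaves (log2 difference 2.60, SE 0.27, adjusted p = 1.9e-07) and was higher than in young leaves too (1.91). TUB5 had 1572 to 2799 (median 2377) in seedlings and 119.5 to 1331 (median 451) in 15 d leaves (log2 difference 2.45, adjusted p = 3.6e-05; 0.079 in a fit of the wild-type and triple mutant arrays alone), and the myb3r1 myb3r4 seedling was the lowest of the 10. TUB7 (1.61) and the alpha-tubulin gene TUA6 (0.85) separated as well, and TUB9 (0.17) did not.

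No gene of the nuclear photosynthesis, chlorophyll synthesis or plastid-encoded lists separated the tissues with leaves higher. Nuclear photosynthesis genes had a median difference of 1.14 with seedlings higher (0.21 over all tested probe sets). Of 14 genes 13 were called higher in seedlings (41.2% of all were), but 2 separated the tissues (14.3%, against 18.9% of all). The mean log2 signal of the list was 12.69 to 12.98 on seedling arrays. On 15 d leaf arrays it was 13.03, 12.24 and 11.89 in wild type and 12.65, 9.90 and 10.40 in the triple mutant, in the order of the replicate numbers. Wild-type replicate 1 thus lay above every seedling, and triple mutant replicates 2 and 3 stood furthest below. Without both leaf arrays numbered 1, 12 of the 14 separated the tissues, and in wild type alone the median difference was 0.57.

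PSAE-1, a subunit of photosystem I, had 14638 to 18931 (median 16055) in seedlings, 2129 to 14626 (median 11602.5) in 15 d leaves and 9725 to 15061 in 5 d leaves. The highest leaf array lay just under the lowest seedling (log2 difference 1.09, SE 0.34, adjusted p = 0.0092), and the difference in wild type was 0.38. ATPC2, a gamma subunit of the chloroplast ATP synthase, had 147 to 244 (median 194) in seedlings, 57.7 to 114 (median 72.5) in 15 d leaves and 319.8 to 374 in 5 d leaves (2.47-fold higher in seedlings than in mature leaves, adjusted p = 2e-06). Rubisco activase, RCA, had a log2 difference of 1.14, the antenna genes LHCB4.1, LHCB4.2 and LHCB4.3 0.87, 1.72 and 0.63, and the Calvin cycle genes SBPASE and PRK 1.74 and 1.27. All 6 overlapped between the tissues, and LHCB4.3 did not pass the test (adjusted p = 0.17). Leaves and seedlings are both green, and the cause of these differences was not tested.

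Chlorophyll synthesis genes showed a clearer gap, in a list added after values were seen. Of 8 tested members 7 separated the tissues with seedlings higher (87.5%, against 18.9% of all tested probe sets), with a median difference of 2.22. CHLM, the magnesium protoporphyrin methyltransferase, had 5751 to 8382 (median 6726) in seedlings and 278 to 5693 (median 1248) in 15 d leaves. The highest leaf array was wild-type replicate 1, just under the lowest seedling (log2 difference 2.51, SE 0.48, adjusted p = 0.00018). CHLI2, a subunit of magnesium chelatase, had 1129 to 1427 (median 1279) in seedlings, 53.4 to 705.5 (median 169) in 15 d leaves and 1863 to 2127 in 5 d leaves (log2 difference 2.81, SE 0.44, adjusted p = 2.2e-05). PORB, the light-dependent protochlorophyllide reductase, had a difference of 2.24, the uroporphyrinogen decarboxylase genes HEME1 and HEME2 2.28 and 2.20, HEMB1 1.05 and GSA1 0.73. HEMA2, a glutamyl-tRNA reductase gene, was the 1 tested member that did not separate (-0.22). In a fit of the wild-type and triple mutant arrays alone the adjusted p was 0.28 for PSAE-1, 0.080 for CHLI2 and 0.12 for CHLM.

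Plastid-encoded genes overlapped for the most part. Of 69 tested, 10 separated the tissues with seedlings higher, and this share of 14.5% lies below the 18.9% over all tested probe sets. None separated with leaves higher. Called higher in seedlings were 42 of 69 (41.2% of all tested probe sets were). Called higher in leaves were 2 (23.8% of all), psbI (-0.47) and psbK (-0.80). The median difference was 1.19, and 31 separated without both leaf arrays numbered 1. psbC, a core antenna protein of photosystem II, had 3115 to 5375 (median 4259) in seedlings and 252 to 2806 (median 700.1) in 15 d leaves (log2 difference 2.50, adjusted p = 5.9e-05). rpoC1, a subunit of the plastid RNA polymerase, had 2898 to 4942 (median 3772) in seedlings and 237 to 2171 (median 1259) in leaves (log2 difference 2.27, adjusted p = 0.00027). Their adjusted p was 0.14 and 0.18 in the fit of the wild-type and triple mutant arrays alone. The plastid-encoded genes were matched to probe sets after the names were seen.

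**Figure D3:**
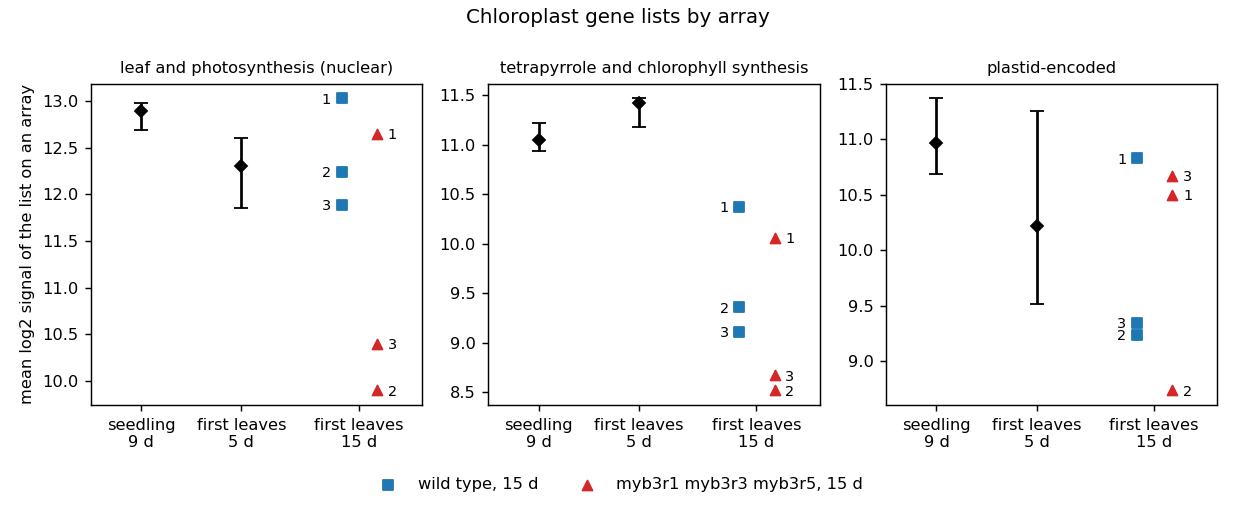
Mean log2 signal of 3 chloroplast gene lists, as the median with the lowest and highest array for seedlings and 5 d leaves (diamonds and bars), and as single arrays with their replicate number for 15 d leaves (squares for wild type, triangles for myb3r1 myb3r3 myb3r5). The 15 d leaf arrays numbered 1 lie nearest to the seedlings in the nuclear and chlorophyll lists, and the nuclear photosynthesis mean spans 9.90 to 13.03 over the 6 leaf arrays.

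Many wall-loosening genes were higher in seedlings. Expansins loosen the wall and XTH enzymes cut and rejoin xyloglucan. Of 23 tested members of both families 10 separated the tissues with seedlings higher (43.5%) and 1 with leaves higher (4.35%), against 18.9% and 10.7% over all tested probe sets. The 10 include EXPA7 and EXPA18 of the root list, which were at the floor on all 6 leaf arrays and could separate in 1 direction only. The median difference was 0.68, 1.1 without both leaf arrays numbered 1 and 0.40 under quantile normalization, and without those arrays 2 separated with leaves higher. EXPB3 had 1064.5 to 1525 (median 1264) in seedlings and 24.8 to 209 (median 40.9) in 15 d leaves. It was 23.2-fold higher in seedlings (log2 difference 4.54, SE 0.30, adjusted p = 5.9e-10). Wild-type replicate 1 was the highest leaf array of EXPB3. XTH16 had 517 to 988 (median 745) in seedlings and 47.2 to 134 (median 71.1) in 15 d leaves (10.1-fold, adjusted p = 6.4e-11). EXPA4 (3.29), EXPA15 (3.05), XTH32 (2.12), XTH20 (1.96), EXPB1 (1.84) and EXPA20 (1.34) separated in the same direction on the log2 scale.

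EXLA1 (-2.17) and EXLB1 (-0.71) were called higher in leaves but overlapped between the tissues. XTH19 was the 1 member that separated with leaves higher. Its signal was 226 to 546 (median 326) in seedlings and 1220.3 to 5453 (median 3725) in 15 d leaves, and the 5 d leaves had 1.31 to 282. The mature leaves were 9.72-fold higher (log2 difference -3.28, SE 0.26, adjusted p = 8.1e-09), the opposite direction to XTH16 of the same family.

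Glycosyl hydrolase family 9 endoglucanases, a list added after values were seen, had 5 of 10 tested members that separated with seedlings higher and none with leaves higher (median difference 1.11), against 18.9% and 10.7% over all tested probe sets. Under quantile normalization, and without both leaf arrays numbered 1, 1 member separated with leaves higher. GH9B13 and GH9C1, of the 5, were at the floor on all 6 arrays of 15 d leaves and could separate in 1 direction only. GH9B13 had 505 to 1184 (median 1018) in seedlings and 1.64 to 26.9 (median 8.08) in 15 d leaves, all under the floor, and was at least 27.6-fold higher (adjusted p = 1.5e-13). In 5 d leaves it was 288 to 507. GH9B8 had 521 to 831 (median 609.9) in seedlings and 4.9 to 218 (median 28.0) in 15 d leaves (11.7-fold with 4 of 6 leaf arrays at the floor, adjusted p = 5.4e-08). It stayed at 36.0 to 82.1 in 5 d leaves. Unlike GH9B13, GH9B8 was low in leaves of both ages.

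TRICHOME BIREFRINGENCE-LIKE genes, whose products acetylate wall polysaccharides, had 6 of 19 tested members separated with seedlings higher (31.6%) and 1 with leaves higher (5.26%), against 18.9% and 10.7% over all tested probe sets, in a list added after values were seen. The median difference was 0.25, and 0.06 under quantile normalization. TBL36 had 1051 to 2205 (median 1368) in seedlings, 1.36 to 170.4 (median 4.5) in 15 d leaves and 26.0 to 51.6 in 5 d leaves. It was 27.9-fold higher in seedlings than in mature leaves, with 4 of 6 mature leaf arrays at the floor (log2 difference 4.80, SE 0.32, adjusted p = 6e-10). From young leaves it differed by 5.21. TBL45 had 1163 to 1888 (median 1584) in seedlings and 18.7 to 926 (median 180.5) in leaves (log2 difference 3.21, adjusted p = 0.00011; 0.13 with the wild-type and triple mutant arrays alone). TBL37 stood the other way, with 384 to 770.2 (median 509) in seedlings and 1431 to 3978 (median 3618) in leaves (5.87-fold, adjusted p = 1.1e-08). Of 3 tested secondary wall genes 1 separated with seedlings higher (33.3%, against 18.9% of all), and none did under quantile normalization. IRX15-L, a xylan synthesis gene, had 149 to 250.3 (median 168) in seedlings and 25.8 to 121 (median 102) in leaves (log2 difference 1.18, adjusted p = 0.00029; 0.11 with the wild-type and triple mutant arrays alone).

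ER bodies store beta-glucosidases such as PYK10, and jacalin-related lectins associate with them. Of 18 tested members of the list 7 separated with seedlings higher (38.9%) and 3 with leaves higher (16.7%), against 18.9% and 10.7% over all tested probe sets. The median difference was 0.61, and 0.36 under quantile normalization, and without both leaf arrays numbered 1 the member count with leaves higher was 5. JAL22, a jacalin-related lectin, had 1875 to 3079 (median 2240.4) in seedlings and 2.15 to 427 (median 59.4) in 15 d leaves (27.6-fold, log2 difference 4.79, SE 0.43, adjusted p = 3e-08). JAL33 had 1841 to 3806 (median 2609.6) in seedlings and 53.8 to 293 (median 131.5) in 15 d leaves (22.3-fold, adjusted p = 6.4e-10). Their 5 d leaf signals, 573 to 864 and 579.7 to 1258, lay between those of seedlings and mature leaves. JAL34 (3.34) and NAI2 (1.40), the latter needed to form ER bodies, separated in the same direction as PYK10.

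The beta-glucosidase genes that separated the tissues with leaves higher were BGLU25, BGLU28 and BGLU44. BGLU15 (-1.67) and BGLU16 (-1.36) were called higher in leaves but overlapped between the tissues. BGLU28 had 187.5 to 548 (median 297) in seedlings and 610.5 to 3692 (median 1151) in 15 d leaves (4.56-fold higher in leaves, adjusted p = 4.4e-05; 0.11 with the wild-type and triple mutant arrays alone). BGLU25 had 421.5 to 711 (median 554) in seedlings and 1667 to 4087 (median 1995) in leaves (3.96-fold, adjusted p = 2.1e-08). BGLU44 had a log2 difference of -1.06. Class III peroxidases, enzymes of the wall, had 1 of 6 tested members separated with seedlings higher (16.7%, near the 18.9% of all tested probe sets) and 2 with leaves higher (33.3%, against 10.7%). Of these, AT5G66390 was at the floor on all 6 arrays of 15 d leaves and PRX52 on all 10 seedling arrays. Each of them could separate in 1 direction only. AT5G66390 had 179 to 342.5 (median 202) in seedlings and 0.994 to 13.2 (median 5.52) in 15 d leaves, all under the floor (at least 6.75-fold, adjusted p = 1.8e-11). PRX52 was under the floor on all 10 seedling arrays and 118 to 1752.5 (median 664) in 15 d leaves, at least 15.1-fold higher there (adjusted p = 1.6e-07). AT5G64120 had 321 to 1604 (median 1057) in seedlings and 3566 to 6182 (median 3859) in 15 d leaves (4.58-fold higher in leaves, adjusted p = 2.3e-06).

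Some genes were present in all seedlings and under the floor in all mature leaves. This held for 59 probe sets, 37 of them with a gene name, that were at least 4 times the floor on all 10 seedling arrays and at the floor on all 6 leaf arrays. On 5 d leaf arrays 32 of the 59 were also at the floor on all 4, and 13 were at least 4 times the floor on all 4. The opposite pattern held for 4 probe sets, none with a gene name. AT4G26010 had 389 to 1194 (median 685) in seedlings and at most 4.35 in 15 d leaves and 19.7 in 5 d leaves, so it was at least 19.7-fold higher than in either (adjusted p = 1.4e-11). AT2G33850 had 1662.5 to 2574 (median 1833) in seedlings, at most 10.0 in 15 d leaves and 2571 to 4681 in 5 d leaves. AT5G45670 had 689 to 994 (median 847), at most 5.32 and 2031 to 3383 in the same order. AT4G29270 had 535 to 970.3 (median 629.5) in seedlings, at most 32.3 in 15 d leaves and 85.7 to 313 in 5 d leaves. AT4G26010 was thus under the floor in leaves of both ages, and the other 3 had signal in young leaves.

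Named genes with large differences and seedlings higher were mostly listed by locus alone, and their order is set in part by the floor. AT5G01870 had 2195 to 3343 (median 2866) in seedlings and 1.59 to 38.0 (median 15.8) in 15 d leaves (84.3-fold with 5 of 6 leaf arrays at the floor, log2 difference 6.40, SE 0.10, adjusted p = 4.1e-18). AT4G22490 (6.35 on the log2 scale) had 3246 to 4665 (median 4185) in seedlings and 25.2 to 75.4 (median 49.2) in 15 d leaves. AT4G29030 was at least 73.2-fold higher in seedlings than in 15 d leaves. Its signal was 1684 to 3493 (median 2242) in seedlings, at most 8.25 in 15 d leaves and 8243 to 9426 in 5 d leaves, above every seedling. AT2G19970 and AT4G15390 were low in leaves of both ages. AT2G19970 had 1053 to 1542 (median 1265) in seedlings, 0.907 to 42.2 (median 3.53) in 15 d leaves and 1.01 to 3.22 in 5 d leaves (log2 differences 5.19 and 5.25). AT4G15390 had 1108 to 2240.5 (median 1413), 4.31 to 64.9 (median 27.9) and 2.95 to 13.0 in the same order. AT1G09750 (37.0-fold) had 3754 to 5219 (median 4494) in seedlings and 21.4 to 685.5 (median 83.9) in 15 d leaves, and the thaumatin-like gene ATLP-1 (33.2-fold) 936 to 1669.9 (median 1367) and 12.2 to 90.2 (median 27.2). Their 5 d leaf signals were 4900.0 to 7486 and 3357 to 4266.

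Genes with mature leaves higher included sugar transporters and genes of starch, autophagy and vacuolar sorting. OCT1, an organic cation transporter gene, had 1.83 to 99.3 (median 4.71) in seedlings, 853 to 6458 (median 3993) in 15 d leaves and 0.771 to 81.5 in 5 d leaves. Of the 10 seedlings 6 were under the floor, and the leaves were 71.5-fold higher against values set to the floor (log2 difference -6.16, SE 0.38, adjusted p = 2.3e-10). Seedling values of OCT1 fell into those under 5 in wild type, myb3r1, myb3r4, myb3r5, myb3r1 myb3r4 and the quadruple mutant, and those of 49.0 to 99.3 in myb3r3, myb3r3 myb3r5 and both triple mutants. That grouping was seen after the values and has no test.

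SWEET proteins transport sugars across membranes. In a list added after values were seen, 4 of 11 tested SWEET genes separated with leaves higher and 1 with seedlings higher (10.7% and 18.9% over all tested probe sets), and the median was -0.01. SWEET10 had 44.3 to 379.7 (median 107) in seedlings and 1632 to 3269.5 (median 2397) in 15 d leaves (21.0-fold higher in leaves, log2 difference -4.39, SE 0.36, adjusted p = 1.1e-08). SWEET13, a sucrose exporter of the leaf phloem, had 114 to 266 (median 182) in seedlings and 556 to 1755 (median 1052) in 15 d leaves (5.43-fold, adjusted p = 6.2e-08). SWEET11, which acts in phloem loading, had 3469.5 to 7481 (median 4753) in seedlings and 7819 to 13349 (median 10862) in 15 d leaves (log2 difference -1.04, adjusted p = 1.9e-05; 0.098 with the wild-type and triple mutant arrays alone), and 37.4 to 675 in 5 d leaves. SWEET4 differed by -1.39. SWEET16, a vacuolar member, stood the other way at 137 to 290.5 (median 164) in seedlings and 17.0 to 75.5 (median 32.5) in leaves (4.31-fold, adjusted p = 6e-07).

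Starch genes stood on both sides, in a list added after values were seen. APL3, a large subunit of the starch synthesis enzyme ADP-glucose pyrophosphorylase, had 270.2 to 559 (median 441) in seedlings and 1968 to 5566 (median 3845) in 15 d leaves (8.65-fold higher in leaves, log2 difference -3.11, SE 0.22, adjusted p = 1.9e-09), and its relative APL4 differed by -1.23. PWD at locus AT4G24450, of the glucan water dikinase family, had 234 to 448 (median 366) in seedlings and 794.5 to 4390.5 (median 2742) in 15 d leaves (log2 difference -2.73, adjusted p = 1.5e-07). DPE1, a glucanotransferase of starch breakdown, had 816 to 1245 (median 1100.1) in seedlings and 210.1 to 801 (median 507) in leaves (2.36-fold higher in seedlings, adjusted p = 0.00015; 0.13 with the wild-type and triple mutant arrays alone). In all, 3 of 6 tested separated with leaves higher (10.7% of all tested probe sets did) and 1 with seedlings higher (16.7%, near the 18.9% of all).

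Of 10 tested autophagy genes 5 separated with leaves higher (10.7% of all tested probe sets did) and none with seedlings higher (18.9% of all), with a median of -0.63, in a list added after values were seen. ATG8B, which encodes a ubiquitin-like protein of the autophagosome membrane, had 275 to 333 (median 301) in seedlings, 647 to 1028 (median 869) in 15 d leaves and 78.6 to 129.9 in 5 d leaves. Every seedling lay above every young leaf and below every mature leaf (log2 difference -1.50, SE 0.10, adjusted p = 4.5e-10, and 1.48 from young leaves). ATG8H had 307.5 to 549 (median 398) in seedlings and 668 to 1539.9 (median 1318.5) in 15 d leaves (2.97-fold higher in leaves, adjusted p = 7.6e-07). Of 11 tested genes of ESCRT and vacuolar protein sorting, also listed after values were seen, 6 separated with leaves higher (54.5%, against 10.7% of all) and none with seedlings higher (median -0.63). The ESCRT-III subunit gene VPS60.2 had 381 to 568.5 (median 453) in seedlings and 678 to 1425 (median 919.6) in leaves (2.02-fold, adjusted p = 3.5e-06). SNF7.1, another of them, had 448 to 684 (median 523) in seedlings and 817 to 1453 (median 1060.3) in leaves (1.97-fold, adjusted p = 2.4e-06).

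The list of senescence and phloem sugar export genes had 4 tested members, WRKY53, SAG29, SAG101 and the sugar exporter gene SWEET11. All 4 were called higher in 15 d leaves than in seedlings (23.8% of all tested probe sets were). WRKY53 and SWEET11 separated the tissues (10.7% of all), and against 5 d leaves all 4 separated with the seedlings higher (27.6% of all). Their median difference was -1.36 from mature and 2.23 from young leaves. WRKY53, a transcription factor of early leaf senescence, had 135 to 361.5 (median 240.0) in seedlings, 534 to 908 (median 786) in 15 d leaves and 10.6 to 82.0 in 5 d leaves (log2 difference -1.68, SE 0.20, adjusted p = 8.1e-07). SAG29 (-2.29) and SAG101 (-0.74) overlapped between the tissues. SWEET11 was counted in the SWEET list too.

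**Figure D4:**
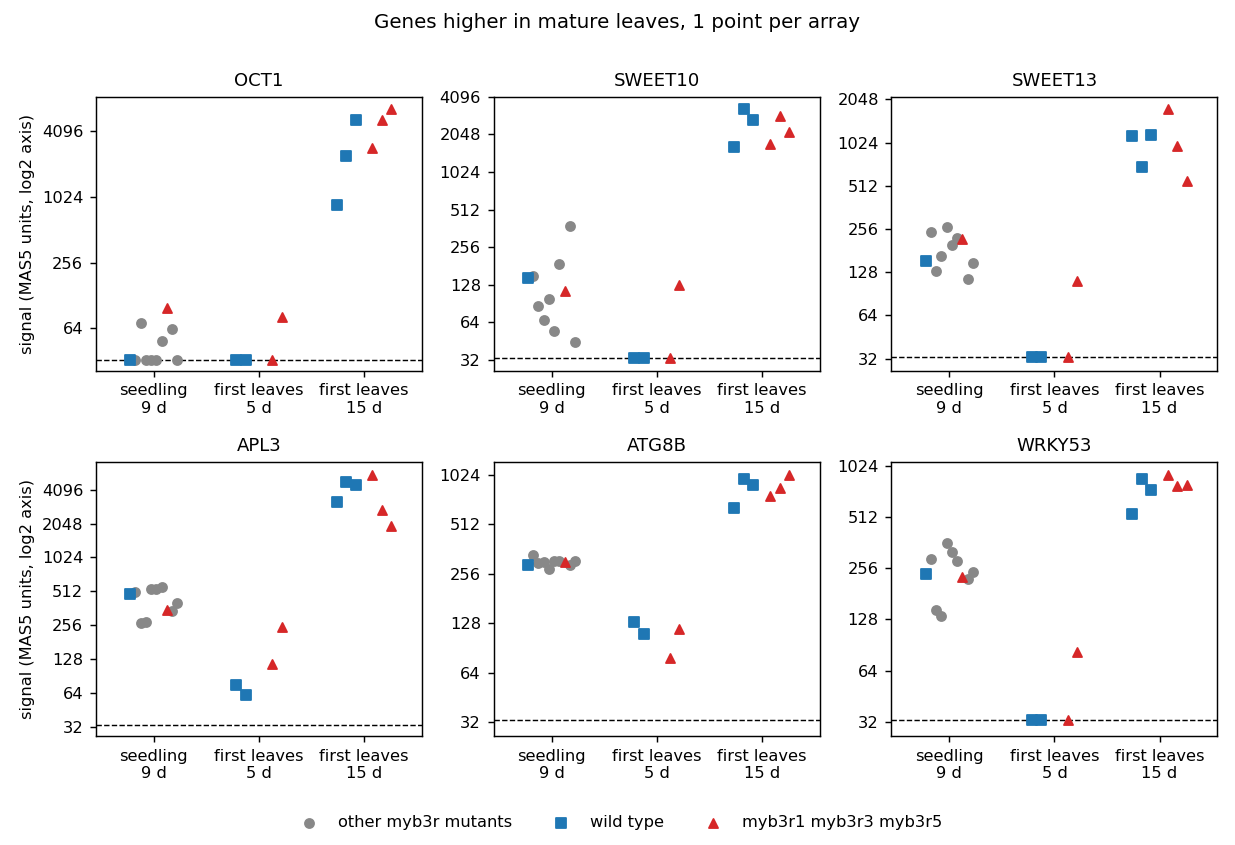
Signal on a log2 axis of 6 genes higher in 15 d leaves, with 1 point per array (squares wild type, triangles myb3r1 myb3r3 myb3r5, circles other mutants) and values under the floor of 33 (dashed line) drawn at the floor. For all 6 genes every 15 d leaf array lies above every seedling array, and the 5 d leaf arrays lie lowest or within the seedling range.

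Among families of secondary metabolism and detoxification, UDP-glycosyltransferases and glutathione S-transferases had members that separated the tissues each way. Of 39 tested UDP-glycosyltransferase genes 4 separated with seedlings higher (10.3%, against 18.9% of all) and 6 with leaves higher (15.4%, against 10.7%), with a median of -0.07. UGT72E2, which glycosylates lignin precursors, had 583 to 912 (median 726) in seedlings and 133.5 to 279 (median 177) in 15 d leaves (log2 difference 1.96, adjusted p = 9.1e-09). UGT71C1 differed by 2.18 with 5 of 6 leaf arrays under the floor. UGT84A3, which acts on hydroxycinnamic acids, had 166 to 289.5 (median 202.5) in seedlings and 918 to 1557 (median 1411.5) in 15 d leaves (log2 difference -2.62, adjusted p = 5.5e-11). UGT76E12 was at most 39.4 on any seedling array and 114 to 1622 (median 1017) in 15 d leaves (19.1-fold higher there, adjusted p = 2.2e-07).

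Glutathione S-transferases had 3 of 13 tested members separated with seedlings higher (23.1%) and 2 with leaves higher (15.4%), near the 18.9% and 10.7% over all tested probe sets. ATGSTF13, of the 3, was at the floor on all 6 leaf arrays. Called were 9 higher in seedlings and 2 in leaves (41.2% and 23.8% of all were). The median difference was 1.21, against 0.21 over all. GSTU26 had 222 to 299.9 (median 251) in seedlings and 17.8 to 79.8 (median 41.4) in leaves (5.44-fold with 3 of 6 leaf arrays at the floor, adjusted p = 2.6e-09). GSTU22 had 133 to 227 (median 153) in seedlings and 8.45 to 33.1 (median 29.2) in leaves (4.81-fold with 5 of 6 leaf arrays at the floor, adjusted p = 1.8e-11). Of the members higher in leaves, GSTU16 had 567 to 738 (median 654) in seedlings and 1353 to 2169 (median 1757) in leaves (2.75-fold, adjusted p = 1e-09). GSTL3, of the lambda class, had 3114.5 to 4371 (median 4017) in seedlings and 7801 to 10044 (median 8744) in leaves (2.23-fold, adjusted p = 8.7e-09). None of these 4 genes overlapped between the tissues, and without both leaf arrays numbered 1 the count of members separated with seedlings higher was 6. Of 13 tested CYP71B cytochrome P450 genes 1 separated with seedlings higher (7.69%, against 18.9% of all tested probe sets). This was CYP71B37 (1.79, with all 6 leaf arrays at the floor), and the count became 3 without both leaf arrays numbered 1. With leaves higher 3 separated (23.1%, against 10.7%), among them CYP71B23 (-2.46) and CYP71B26 (-2.27). The median of the family, 0.23, turned to -0.10 under quantile normalization. Of 5 tested subtilases, which are secreted proteases, SBT1.3 (4.27) and SBT4.12 (3.73) separated with seedlings higher. SBT3.5 (-3.68) and SBT3.3 (-2.01) separated with leaves higher. These were 2 members each way, against 18.9% and 10.7% over all tested probe sets. The median difference of the subtilases was -0.21, and -0.97 under quantile normalization. Under that scaling 2 members separated with seedlings higher and 3 with leaves higher. SBT4.12 was at most 39.5 in leaves of either age, while SBT1.3 reached 3871 to 6580.2 in 5 d leaves. The lists of CYP71B and subtilase genes were added after values were seen.

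None of 4 tested glucosinolate genes separated seedlings from mature leaves, though 3 were called higher in leaves (23.8% of all tested probe sets were). Without both leaf arrays numbered 1, 1 separated with leaves higher. BCAT4, of methionine chain elongation, had 3489 to 5882 (median 4523) in seedlings, 4399 to 8225 (median 6175) in 15 d leaves and 16.4 to 329 in 5 d leaves. Its log2 difference was -0.41 from mature leaves (adjusted p = 0.03; 0.065 without triple mutant leaf replicate 1, 0.083 and 0.090 without wild-type leaf replicate 2 and 3, 0.051 without the myb3r3 myb3r5 or the myb3r4 seedling, 0.47 with the wild-type and triple mutant arrays alone, and 0.072 with the replicate block) and 6.03 from young ones. Of 3 flavonoid genes none separated, and 1 did with leaves higher without those arrays. DFR of anthocyanin synthesis varied within each tissue, 516 to 2551 (median 1289) in seedlings and 1737 to 6008.5 (median 3723) in leaves (log2 difference -1.46, adjusted p = 0.0013; 0.051 with the wild-type and triple mutant arrays alone). The jasmonate-responsive defensin gene PDF1.2 had 495 to 12724 (median 2200.3) in seedlings and 297 to 6539 (median 1599) in leaves (adjusted p = 0.73). The PDF1.2 ranges overlapped over most of their length. None of 3 clock genes was called by limma. GI had 199.6 to 524.5 (median 358) in seedlings and 365 to 597 (median 468) in leaves (log2 difference -0.37, adjusted p = 0.1; -0.48 and 0.040 under quantile normalization).

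Of 6 tested auxin genes 2 separated the tissues with seedlings higher (33.3%, against 18.9% of all). GH3.9, of the 2, was at the floor on all 6 arrays of 15 d leaves and could separate in 1 direction only. GH3.9 had 80.7 to 144 (median 109.6) in seedlings and at most 30.5 in 15 d leaves, all under the floor (log2 difference 1.78, adjusted p = 9.8e-10). IAA30 had 56.4 to 100.1 (median 77.3) in seedlings and 2.11 to 37.5 (median 20.8) in leaves (log2 difference 1.17, adjusted p = 5.1e-07). ARR15, a cytokinin response regulator, had 57.4 to 100.2 (median 79.7) in seedlings, all 15 d leaf arrays under the floor, and 156 to 272 in 5 d leaves (at least 2.38-fold higher in seedlings than in mature leaves, adjusted p = 8e-08). Of 4 tested mineral transporter genes none separated. All 4 were called (65.0% of all tested probe sets were), 3 higher in seedlings and 1 in leaves. Without both leaf arrays numbered 1, 2 separated with seedlings higher and 1 with leaves higher. MTP11 differed by 0.97 (adjusted p = 0.00065) and ZIP6 by -0.62 (adjusted p = 0.002), both with overlapping ranges. With the wild-type and triple mutant arrays alone their adjusted p was 0.19 and 0.27. The wax ester synthase gene WSD1 was under the floor on all 15 d leaf arrays and on 3 of 10 seedling arrays. Its log2 difference of 0.37 (adjusted p = 0.046) was not called without any 1 leaf array (adjusted p = 0.065 to 0.071), without seedlings of 5 genotypes in turn (0.069 to 0.076) or with the replicate block (0.071).

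**Figure D5:**
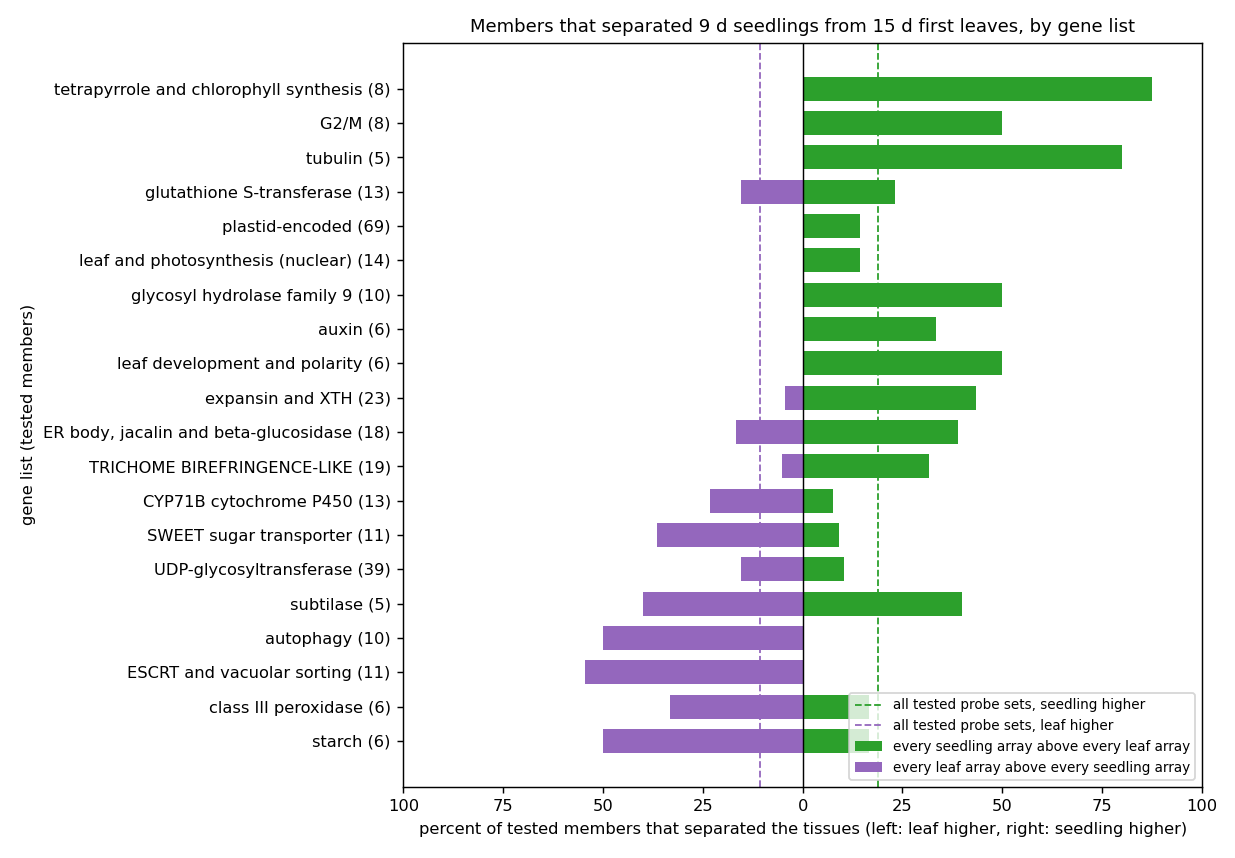
Percent of the tested members of each gene list that separated the tissues, to the right with every seedling array above every leaf array and to the left with every leaf array above every seedling array, ordered by median difference. Dashed lines mark 18.9% and 10.7%, the shares over all tested probe sets, and lists with fewer than 5 tested members are not drawn. Also left out is the chromosome and chromatin list, added after values were seen, where all 12 tested members separated with seedlings higher.

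Large named differences with leaves higher, apart from OCT1 and SWEET10, were in genes listed by locus alone. AT5G17340 had 12.3 to 84.1 (median 32.1) in seedlings and 997 to 3983 (median 1686) in 15 d leaves (44.5-fold with 6 of 10 seedling arrays at the floor, adjusted p = 3.2e-11). AT1G10585 and AT1G74010 varied most among leaf arrays, at 265 to 5003 (median 2483) and 216 to 6873 (median 2131), against 15.9 to 66.1 (median 31.6) and 41.5 to 79.9 (median 51.2) in seedlings. AT3G43110, AT5G02580 and AT5G39520 had log2 differences of -4.64, -4.57 and -4.46 (adjusted p = 2.5e-10, 2.7e-10 and 8.1e-07). On the 5 d leaf arrays these 6 genes lay at 185.7 or less, below every 15 d leaf array. They were under the floor on all 5 d arrays but triple mutant replicate 2. On that array AT1G10585 (173.1), AT1G74010 (119.4) and AT5G02580 (102.5) lay above every seedling, and the other genes did not.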

How the data were processed

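RNA of 20 samples was measured on Affymetrix arrays, and 16 arrays enter the comparison of 9 d seedlings with 15 d first leaf pairs. The deposited values are signal intensities on a linear scale, made by the authors with MAS5 per the submitters' processing notes, with no version stated; a trimmed mean, leaving out the outer 2% on both sides, was 500.04 to 500.06 on each array. Values under 33 were set to 33 and log2 was taken. Probe sets with signal over the floor on 6 or more of the 16 arrays (4 for the comparison with 5 d leaves) were fitted with limma 3.58.1 in R 4.3.3, seedling against leaf over all genotypes, with Benjamini-Hochberg adjustment over all tested probe sets and a threshold of 0.05. The fit has 14 residual degrees of freedom, and the number of arrays limits the precision. Folds and standard errors are on the scale of the floored log2 values, so a fold against values at the floor is a lower bound where all arrays of a tissue are at it.

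Of 22810 probe sets, 64 are array controls, 13513 carry 1 gene name, 503 several and 8730 none; names were matched to the TAIR10.1 gene table for 13436 probe sets, and only probe sets with 1 gene are named. The genes named are the 8 largest differences each way, the 6 highest of those present in every seedling and at the floor in every leaf, and per gene list the 2 largest differences each way that separated the tissues, or the 2 brightest members where none did; all members of the G2/M, root, meristem, leaf development and seed reserve lists could be named. Genes given by a log2 difference alone, with no signals per tissue, were mostly chosen after their values were seen. The members and lists were chosen with earlier results of these data known. No named member was found for the lists of cytosolic ribosomal proteins, extensins and arabinogalactan proteins, aquaporins, Casparian strip and suberin genes, and mitochondrion-encoded genes.

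Leaf arrays of the same replicate number deviated together from their genotype means, with correlations of 0.73, 0.60 and 0.57 for numbers 1, 2 and 3, and from -0.67 to 0.42 for unlike numbers; the numbers were therefore taken to pair the leaf arrays, and a fit with the number as a random block was run. Other alternatives were the scaling, the floor, the filter, the genotypes fitted and leaving out each array in turn. The fit was tested on simulated data. Figures were drawn with matplotlib 3.10.9.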

Additional observations from a re-analysis of the deposited data

Results flagged for a closer look

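In 220 groups looked at (seedlings and 15 d leaves for 110 named probe sets), 7 had 1 array that lay apart from the others by Dixon's test, and chance alone marks about 1 in 20 groups. In 15 d leaves the array was wild-type replicate 1 each time. It was the highest for ATLP-1 at 90.2 (the others 12.2 to 44.1) and the lowest for AT5G39520 at 577.1 (the others 2239 to 4372), XTH19 at 1220.3 (3525 to 5453), UGT84A3 at 917.9 (1294 to 1557) and TBL37 at 1430.9 (2802 to 3978). In each of these 5 genes it lay nearer to the seedlings than the other leaf arrays did. In seedlings the myb3r1 myb3r4 array was the lowest for TUB5 at 1571.6 (median 2377), and the myb3r3 myb3r4 myb3r5 array was the highest for SBT4.12 at 725.2 (median 445). Each of the 7 genes separated the tissues with these arrays included.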

How the results depend on the processing

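With the wild-type and triple mutant arrays alone (2 seedlings against 6 leaf arrays), 2990 probe sets were called higher in seedlings and 1577 in leaves. Without both 15 d leaf arrays numbered 1, an alternative chosen after seeing the data, 5309 and 3076 separated the tissues, and with the probe sets above the floor on all 16 arrays 2096 did with seedlings higher. Under quantile normalization 5583 were called higher in seedlings and 5888 in leaves, and 3633 and 4969 separated seedlings from 5 d leaves with seedlings and leaves higher. Scaled to the median, the calls were 5978 and 5498. The test of the difference between genotypes called 0 probe sets with a floor of 16 (503 with 33), 1148 with a floor of 66 and 224 under quantile normalization. Leaving out 1 array at a time gave 6964 to 7641 calls with seedlings higher and 4022 to 4433 with leaves higher, and 3404 to 4297 and 1937 to 2370 that separated the tissues. Against 5 d leaves the same gave 6952 to 7395 and 4717 to 5014 calls, and 5059 to 5557 and 3438 to 3721 separated. It gave 358 to 645 calls between genotypes, and in wild type 2903 to 3949 probe sets with the seedling higher and 1414 to 1925 with leaves higher. With the replicate block (leaf numbers as a random effect, correlation 0.32), 6900 and 3961 were called, 3367 and 1915 separated and 481 were called between genotypes; 3xHMG-box1 (adjusted p = 0.057), AUR2 (0.087), BCAT4 (0.072), MUTE (0.057) and WSD1 (0.071) lost their call, and no other named gene did.

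Of 88 named genes that separated the tissues, 13 lost the call under any alternative, 12 of them with the wild-type and triple mutant arrays alone and SPCH with a floor of 66. LAS turned to -0.48 under quantile normalization, and MUTE and WSD1 came to 0.0 with a floor of 66, above most of their signals. Over the named genes and alternatives, 80 results were weaker, 10 stronger and 2988 kept their direction and side of the threshold. The cause of these shifts was not tested, other than the fewer arrays or probe sets where an alternative removes them. Genes near the floor have bounds only, and most loci of the root and meristem lists had no named probe set.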
